A study of Drosophila melanogaster with 2 samples.

Results

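Of the 30000 candidate peaks in the authors' pooled list, 34 had their summit in the pericentric heterochromatin of the arms 2L, 3L, 3R and X, the stretches next to the centromeres. A candidate was taken when its summit lay above 22.16 Mb on 2L, above 22.96 Mb on 3L, below 4.180 Mb on 3R or above 22.63 Mb on X of the dm6 build, so position alone chose the members and no measured value did. The 34 members formed 28 regions once overlapping ones were merged. They are compared with the 23995 candidates on the rest of the same 4 arms. The samples were chromatin of whole embryos, mixed in sex and 6 to 24 hours old, of a transgenic fly line that carries the protein CG6683 with GFP at its C-terminus. ChIP-seq was done with an anti-GFP antibody on sonicated fragments of 200 to 800 bp. There was 1 group of 2 biological replicates, labelled 2 and 3, both of this genotype, tag and antibody. The dm3 lists carry most of the same intervals under the other number, so which replicate is which is uncertain, and the numbers below are those of the dm6 lists. Whole embryos mix all tissues, so a peak says nothing of the cells it came from, and fewer cells with a bound site cannot be told apart from weaker binding in each.

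Pericentric heterochromatin is the compact chromatin around the centromeres, rich in satellite repeats and the remains of transposons, and marked by methylated histone H3 and the protein HP1. It holds few genes per length, yet many of these are essential, and some need the heterochromatic setting for normal expression. Reads from repeats often cannot be placed at a single position, so peak lists cover mainly what is unique in sequence.

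The pooled list holds candidates of any strength, background included, and the authors' optimal list of 2980 peaks is what passed their threshold for reproducibility (the irreproducible discovery rate, IDR). That list held 1 of the 34 members, against 9.98% of the candidates on the rest of the arms. Signal is the authors' own value per peak, with no normalisation stated, and it is compared within a list only. The files used hold no read counts, so depth is unknown. Peaks of the same libraries are not replicates, and with 1 group of 2 samples no test over samples could be made. Every comparison below is therefore a description, with the 2 replicate lists beside the pooled one, and the 95% intervals are exact binomial or Poisson intervals that cover counting error only.

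The sequences under 6 of the members are shown as examples, picked by signal, arm or word, and they do not stand for all 34. They are the only member that passed into the optimal list (in an intron of fog), the pair next in signal (upstream of stnA), the strongest member of 3R (in an intron of CG12581), and the pair that holds the word TATCGATA (in introns of CG17167 and of CG17159). Each is the 201 bases centred on a summit, 5′ to 3′ on the + strand of the RefSeq Release 6 genome (dm6 coordinates), and capitals mark AAATAT and TATCGATA on either strand, joined where matches overlap.
fog intron, chrX:22837457-22837657: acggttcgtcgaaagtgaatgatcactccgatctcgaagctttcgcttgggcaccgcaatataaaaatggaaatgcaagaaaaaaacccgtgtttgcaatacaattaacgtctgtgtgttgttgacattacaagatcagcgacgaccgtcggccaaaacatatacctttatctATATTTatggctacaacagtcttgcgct
stnA intergenic, chrX:23007344-23007544: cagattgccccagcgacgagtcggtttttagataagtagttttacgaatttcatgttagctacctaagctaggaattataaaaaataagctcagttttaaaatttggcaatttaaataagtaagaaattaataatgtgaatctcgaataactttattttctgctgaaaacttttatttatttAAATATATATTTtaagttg
stnA promoter, chrX:23004888-23005088: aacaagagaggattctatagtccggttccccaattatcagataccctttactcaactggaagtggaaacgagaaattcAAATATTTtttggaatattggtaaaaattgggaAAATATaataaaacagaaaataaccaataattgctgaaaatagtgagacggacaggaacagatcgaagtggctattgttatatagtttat
CG12581 intron, chr3R:4179190-4179390: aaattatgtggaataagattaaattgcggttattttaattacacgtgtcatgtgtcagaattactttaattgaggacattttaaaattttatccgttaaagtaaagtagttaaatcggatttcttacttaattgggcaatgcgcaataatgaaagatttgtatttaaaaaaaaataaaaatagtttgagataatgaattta
CG17167 intron, chrX:23078555-23078755: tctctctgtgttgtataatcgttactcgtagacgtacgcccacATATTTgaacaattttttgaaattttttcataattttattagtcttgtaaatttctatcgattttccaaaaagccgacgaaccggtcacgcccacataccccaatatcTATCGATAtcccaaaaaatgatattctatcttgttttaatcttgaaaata
CG17159 intron, chrX:23090658-23090858: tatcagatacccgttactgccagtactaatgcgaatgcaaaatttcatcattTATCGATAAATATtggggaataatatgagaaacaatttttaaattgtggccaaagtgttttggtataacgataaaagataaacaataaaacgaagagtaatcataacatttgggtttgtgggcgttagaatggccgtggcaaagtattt
None of the 6 holds the satellite unit AATAT or AAGAG in tandem, and the 50 bases at each summit occur once in the genome. That held for all 34 members, and for 99.9% of the candidates on the rest of the arms. The stretch upstream of stnA with a signal of 150.9 is poor in G and C (26.4%), as is that of CG12581 (23.9%), whereas the fog stretch has 41.8%.

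TATCGATA, the DNA replication-related element that the factors Dref and BEAF-32 bind, lay within 100 bp of 2 of the 34 member summits (5.88%, 95% interval 0.721% to 19.7%) and of 1.94% of the summits on the rest of the arms. AAATAT, a word made of A and T alone that was already known to be frequent under these peaks, was at 18 members (52.9%) and 39.7% of the rest. GAGAG, the core of the sites of GAGA factor, was at 10 members (29.4%) and 23.7% of the rest, and ACAGTG at 5 (14.7%) and 11.4%. All 4 shares of the rest lay inside the members' intervals. The satellite units AATAT and AAGAG, searched as 2 copies in tandem, were at 0 members each, which allows a share of up to 10.3%, and at 0.725% and 0.104% of the rest. GC content within 100 bp of the summit averaged 41.0% in the members (SD 9.72 across peaks) and 39.9% in the rest (SD 8.76). In an annotated transposon, an INE-1 element upstream of stnA, lay 1 of the 34 member summits (2.94%, 95% interval 0.0744% to 15.3%). The share of the rest was 0.392%, inside that interval.

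Candidates were sparse in the pericentric spans and lay within 500 kb of the boundaries. The spans add up to 11.60 Mb and held 2.93 candidates per Mb (95% interval 2.03 to 4.10), against 250.9 per Mb on the rest of the arms, an 85.6-fold gap. Both replicate lists had it, with 1.64 per Mb in the spans against 250.8 on the rest for replicate 2, and 4.23 against 249.6 for replicate 3. The spans are less unique in sequence, since 46.0% of their 50-base words occur once in the genome, against 94.7% on the rest. Counted per Mb of unique words the densities were 6.45 and 265.2, which leaves a 41.1-fold gap. The spans also held 8.11 protein-coding genes per Mb against 114.2, and 36.2 candidates per 100 genes against 219.8. Transposons covered 14.8% of the spans and 4.11% of the rest. How much of the gap goes with sequence, genes or chromatin was not tested.

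Chromosome 4, small, rich in transposons and largely heterochromatic as well, did not share this sparsity. It held 272.2 pooled candidates per Mb (95% interval 245 to 302), transposons cover 24.8% of it, and 86.7% of its 50-base words are unique. The 2 replicate lists differed there, with 114.2 candidates per Mb in that of replicate 2 and 410.9 in that of replicate 3. Its share of candidates in the optimal list was as low as that of the spans, at 9 of 367 (2.45%).

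The 4 arms were unlike each other. X held 26 of the 34 members, or 28.5 per Mb of its span against 262.8 per Mb on the rest of X, a 9.22-fold gap. The span of 2L had 5 members, or 3.69 per Mb against 236.5, and that of 3R had 3, or 0.718 per Mb against 234.1. The gaps were 64-fold on 2L and 326-fold on 3R. The longest span, the 5.15 Mb of 3L, held 0 members, which allows at most 0.716 per Mb, against 273.3 on the rest of 3L. In the list of replicate 2 the counts were 16 on X, 3 on 2L, 0 on 3R and 0 on 3L, and in that of replicate 3 they were 24, 11, 9 and 5. X came first in both lists and 3L was at 0 or last, and all 4 spans had more peaks in the list of replicate 3.

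**Figure D1:**
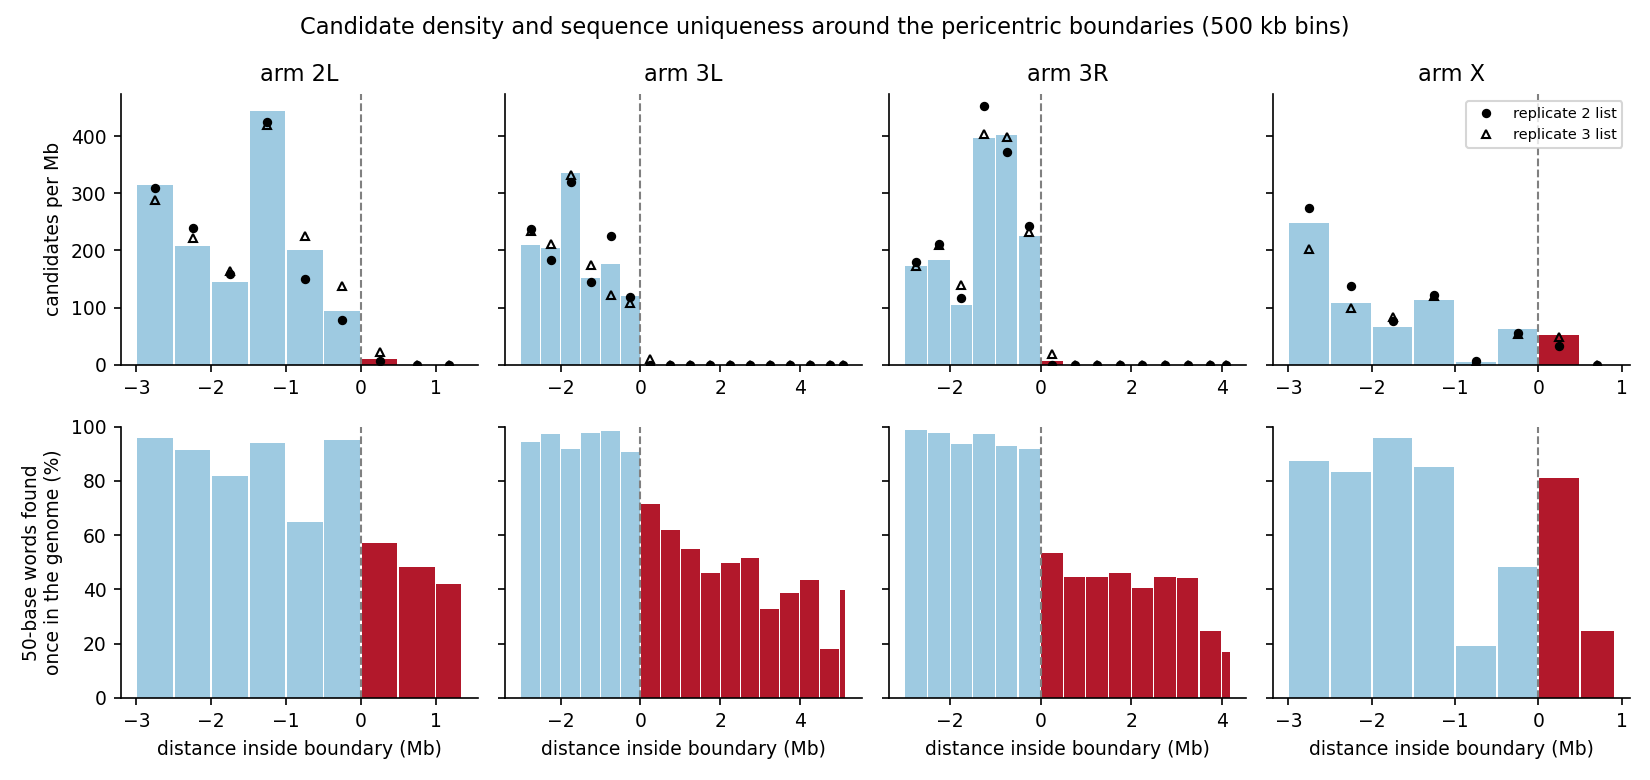
Candidates per Mb in bins of 500 kb (upper row: bars for the pooled list, filled circles for replicate 2, open triangles for replicate 3) and the percent of 50-base words found once in the genome (lower row), against the distance inside the pericentric boundary in Mb, for the 4 arms, with bins of the spans in red and bins outside them in blue. The red bars of the upper row end within the first 0.5 Mb on 2L, 3R and X, and 3L has none, while most bins of the spans are less unique than bins outside them.

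By distance, all 34 members lay in the first 500 kb inside the boundaries (17.0 per Mb over the 4 arms). The 500 kb just outside held 251 candidates (125.5 per Mb). On X, which holds 26 of the 34, that step was small per length, with 52.0 per Mb in the first 500 kb inside and 62.0 just outside. The X bin just outside, with 31 candidates, was 48.1% unique in 50-base words, less than the 81.0% of the first bin inside. The step per unique length on X is therefore larger than these densities show. The 500 kb beyond that held 2 candidates. On the other arms the first 500 kb inside held 5 candidates on 2L, 3 on 3R and 0 on 3L, against 47 on 2L, 113 on 3R and 60 on 3L just outside. Beyond the first 500 kb the 21 remaining bins, 9.60 Mb in all, held 0 candidates in the pooled list and 0 in either replicate list. In these bins 43 protein-coding genes start, 38 of them in unique sequence, and the share of unique 50-base words per bin was 16.7% to 61.8%. What the absence of candidates there goes with was not tested. The first bins of the arms differed as well. The first bin of X was 81.0% unique and held 26 members and 23 gene starts, whereas that of 3L was 71.4% unique and held 0 members and 10 gene starts. The deepest member summit lay 472 kb inside the boundary on X, 49.6 kb inside on 3R and 8.65 kb inside on 2L. In the list of replicate 3 the deepest summits lay 466 kb inside on X, 141 kb on 3L, 101 kb on 3R and 91.3 kb on 2L.

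The members formed 5 clusters of neighbours no more than 50 kb apart, 3 of them on X. The first X cluster lies in fog, which encodes the secreted ligand that sets off apical constriction in gastrulation, and in CG42346, a gene that overlaps it. Its 5 members spanned 19722 bp, and each lay inside both genes. The highest of all members was there, at chrX:22837479-22837658, in an intron 1298 bp upstream of the nearest fog start. Its signal was 193.5 in the pooled list (rank 2436 of 30000), 77.81 in that of replicate 2 and 113.2 in that of replicate 3. It was the only member in the optimal list, whose lowest signal was 170.6 and whose median was 261.6, so it stood near the lower end of that list. It was also the only member narrower than 444 bp, at 180 bp. The second intronic member there, at chrX:22833514-22833957, lay 1337 bp inside CG42346 and had signals of 93.88 in the pooled list, 38.78 in replicate 2 and 55.26 in replicate 3. The other 3 were weak, at 30.39 to 32.09, and each was found in 1 of the replicate lists.

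The second X cluster packed 10 members (7 merged regions) into 8827 bp between stnA and Rab21, and 6 of them had a peak in both replicate lists. The genes stnA and stnB, transcribed from 1 shared start as a dicistronic unit, encode proteins of synaptic vesicle recycling. An intergenic member 2796 bp upstream of that start, at chrX:23007222-23007665, had the second highest signal, with 150.9 in the pooled list, 60.31 in replicate 2 and 92.27 in replicate 3. A second, at chrX:23004766-23005209, had its summit 340 bp upstream of the same start and inside the INE-1 element. Its signals were 115.6, 48.02 in replicate 2 and 76.18 in replicate 3. Further members lay 436 bp inside the start of FucTC, an alpha-fucosyltransferase homologue (81.88, 35.94 in replicate 2 and 47.09 in replicate 3), and 38 bp inside that of the small GTPase gene Rab21 (66.97, 48.76 in replicate 2 and 33.77 in replicate 3). The Rab21 summit also lay 124 bp from the start of the neighbouring gene Coa7, so both genes counted as carrying it. By rank within its list of 30000, the Rab21 peak stood higher in replicate 2 (7352) than in replicate 3 (17411), whereas the ranks of the strongest stnA peak were 5213 and 3602.

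The third X cluster, 11 members in 30939 bp, was weaker, with signals of 29.15 to 87.66, and 4 of the 11 had a peak in both replicate lists. Its highest member, at chrX:23091802-23092245, lay in an intron 607 bp inside CG17159 (87.66, 22.86 in replicate 2 and 66.71 in replicate 3). A promoter member lay 419 bp inside the nearest start of CG17162 (76.26, 32.48 in replicate 2 and 44.61 in replicate 3). The CG17159 member that holds TATCGATA had 54.41 in the pooled list and 47.03 in replicate 3, and no peak in replicate 2. The genes CG17159 and CG17162 overlap, so a summit in the one can lie in the other. An intronic member of CG17167 at chrX:23078433-23078876, with CG17163 as the gene of the nearest start, had 62.88, 20.32 in replicate 2 and 45.79 in replicate 3. The gene su(f), which encodes a subunit of the cleavage stimulation factor in mRNA 3′ end formation, had a member 276 bp inside its start with 51.81 in the pooled list and 31.12 in replicate 2, and no peak in replicate 3.

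On 2L the 5 members lay within 7233 bp, 1861 to 8650 bp inside the boundary. The nearest start of each was that of Clamp, a zinc-finger protein gene known for dosage compensation and histone gene regulation. Their summits lay in Clamp or in CG42748, a gene that overlaps it and starts outside the span. The highest, at 2L 22168429 to 22168872, had its summit 492 bp inside the Clamp start and signals of 97.33 in the pooled list, 43.14 in replicate 2 and 58.78 in replicate 3. The other 4 were at 34.46 to 43.45, in 3′ UTRs and a coding exon. On 3R a member 4658 bp inside CG12581, at chr3R:4179068-4179511, had 74.15 in the pooled list and 58.40 in replicate 3, and no peak in replicate 2. This summit was 711 bp from the boundary, which CG12581 itself crosses. The deepest 3R member lay 126 bp upstream of the nearest start of Gfat1, the entry enzyme of the hexosamine pathway, with a pooled signal of 42.37 and a peak in neither replicate list. None of the 3 members of 3R had a peak in replicate 2.

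**Figure D2:**
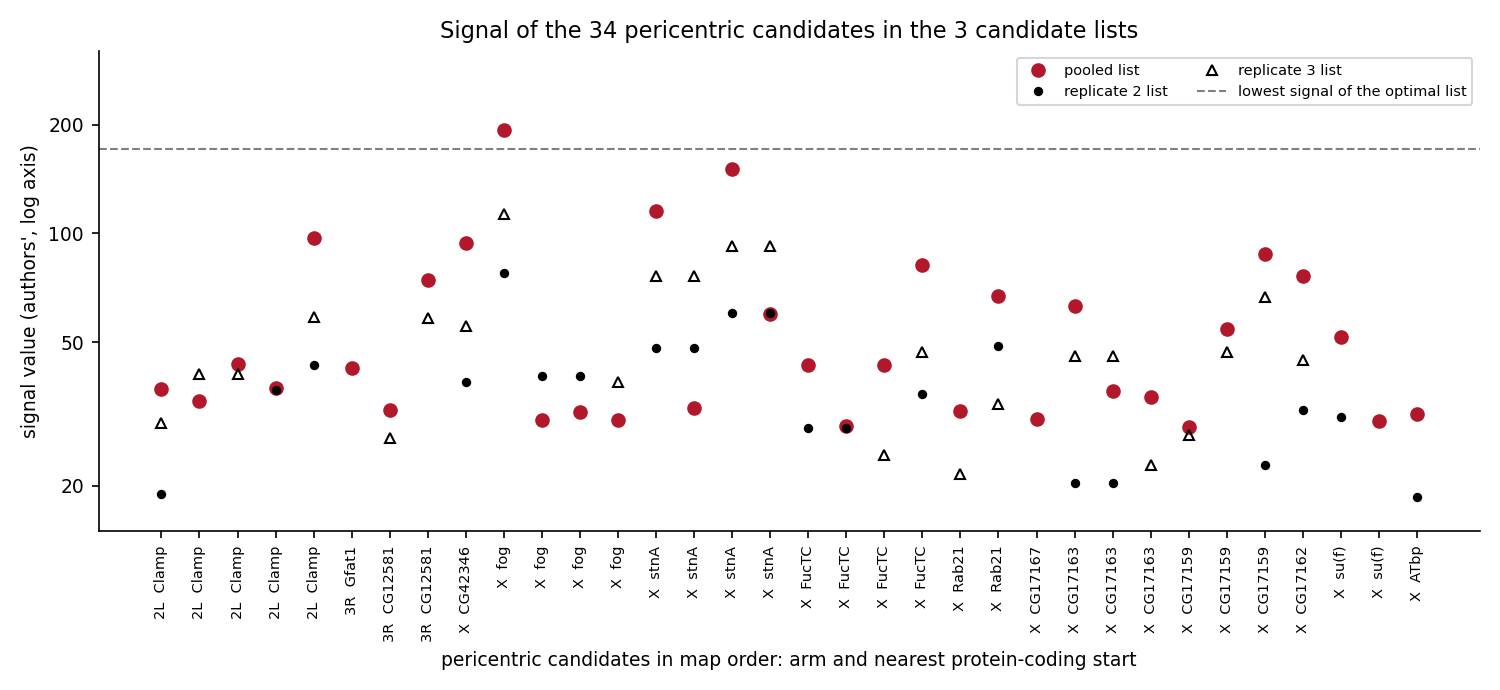
Signal (authors' value, log axis) of each of the 34 pericentric candidates in map order, named by arm and gene of the nearest protein-coding start, in the pooled list (red), the list of replicate 2 (black circles) and that of replicate 3 (open triangles), where a missing symbol means no overlapping peak. The dashed line is the lowest signal of the optimal list (170.6), and 1 member, at fog, lies above it.

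The fog member was the only pericentric candidate among the reproducible peaks. It made up 2.94% of the 34 members (95% interval 0.0744% to 15.3%), against 2395 of 23995 candidates on the rest of the arms (9.98%). The share of the rest lies inside the members' interval, so a difference was not detectable with 34 members. Per Mb the optimal list held 0.0862 peaks in the spans and 25.04 on the rest. A peak in both replicate lists was found for 14 members (41.2%, 95% interval 24.7% to 59.3%) and for 68.5% of the rest, which lies outside that interval. Another 7 members had a peak in replicate 2 alone, 10 in replicate 3 alone and 3 in neither, counts not made for the rest. Taken list by list, replicate 2 had a peak for 61.8% of the members (95% interval 43.6% to 77.8%) and 81.5% of the rest. For replicate 3 the shares were 70.6% (95% interval 52.5% to 84.9%) and 84.0%, and here the share of the rest lies inside the interval. Where members overlap, they can share 1 replicate peak.

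The median signal of the members was 42.8 (quartiles 32.2 and 72.4, 95% interval of the median 32.8 to 62.9), against 55.4 on the rest (38.8 and 93.3). The value of the rest lies inside the members' interval, so a difference was not detectable with 34 members. Of the members, 12 of 34 (35.3%) exceeded the pooled median of 55.31, against 50.1% of the rest. In the replicates' own lists the medians were 32.5 in the spans against 28.9 on the rest for replicate 2, and 34.3 against 37.7 for replicate 3, so the direction was not shared. Within a location class the medians were 71.6 against 71.5 at promoters, 54.4 against 52.7 in introns, 46.4 against 54.1 in intergenic sequence, 32.2 against 37.4 in coding exons and 37.0 against 41.8 in 3′ UTRs. The lists end at 30000 peaks, and the lowest pooled signal was 28.54, so weaker sites are not listed.

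Members lay at promoters, meaning within 500 bp of the start of a protein-coding transcript, in 8 of 34 cases (23.5%, 95% interval 10.8% to 41.2%), against 31.8% on the rest. In the list of replicate 2 the order was the other way, with 8 of 19 (42.1%, 95% interval 20.2% to 66.5%) against 33.2%, and in that of replicate 3 it was 13 of 49 (26.5%) against 29.9%. The 2 replicate lists thus differed in order, so no direction of the promoter share is given. With the boundaries 500 kb further out the share was 45.3% against 31.6%. Of the 285 candidates in that wider set, 251 lie outside the spans, so it says little of the members. Introns held 11 (32.4%) against 42.7%, and intergenic sequence 4 (11.8%) against 12.6%. Coding exons held 5 (14.7%, 95% interval 4.95% to 31.1%) against 4.78%, and 3′ UTRs 5 (14.7%, same interval) against 5.26%. On chromosome 4 these shares were also above the rest, at 10.1% in coding exons and 9.81% in 3′ UTRs. Its promoter share was 24.8% and its intron share 33.8%. The promoter, intron, intergenic and 3′ UTR shares of the rest lie inside the members' intervals and that of coding exons lies just outside. With overlapping ones merged, coding exons held 3 of 28 (10.7%, 95% interval 2.27% to 28.2%) against 5.21%, inside the interval. Of the 5 members in 3′ UTRs, 3 lay on 2L, in the 3′ UTR of Clamp or of CG42748. The 8 promoter summits were at a median distance of 308 bp from the start, and 2 of the 8 lay upstream of it, against 145 bp and 58.6% upstream on the rest. Within 200 bp of a start lay 2 members (5.88%), those of Gfat1 and Rab21, against 20.5% of the rest.

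**Figure D3:**
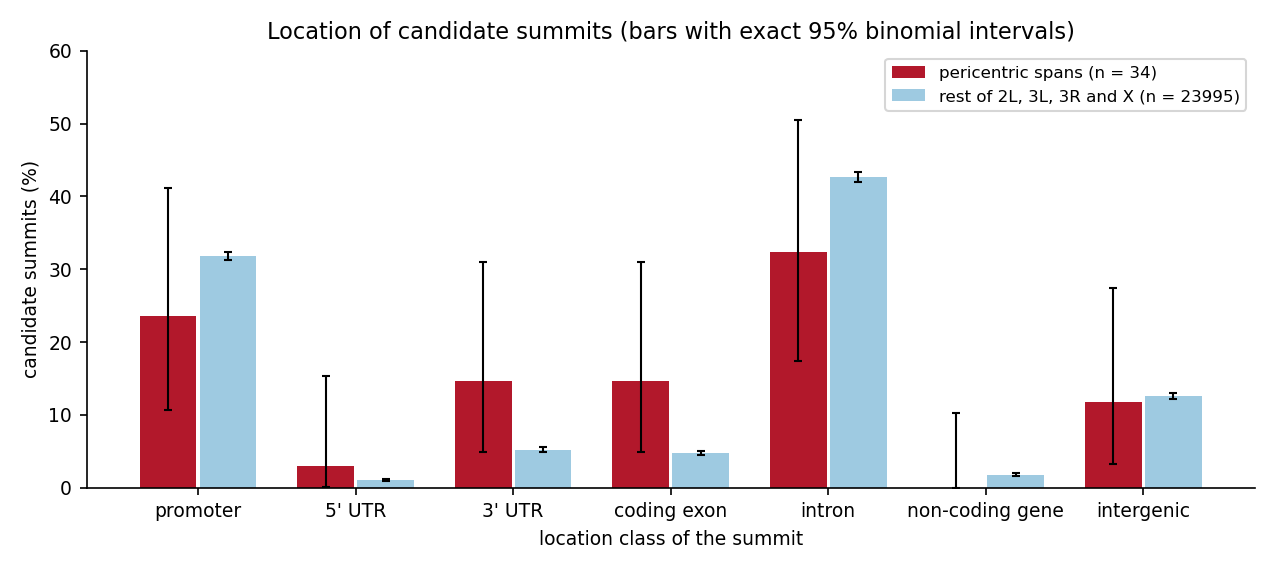
Percent of candidate summits in each location class, in the pericentric spans (red, n = 34) and on the rest of 2L, 3L, 3R and X (blue, n = 23995), with exact 95% binomial intervals. Promoters hold 23.5% and 31.8%, and the coding exon and 3′ UTR bars of the spans (14.7% each) have wide intervals.

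Most genes that start in the spans had no candidate near them. Of 94 protein-coding genes with a start there, 10 had a pooled summit no more than 500 bp from a start (10.6%, 95% interval 5.22% to 18.7%), against 50.7% of the 10919 genes on the rest of the arms. The 10 were Clamp, Gfat1, stnA, stnB, FucTC, Rab21, Coa7, CG17167, CG17162 and su(f), 8 of them on X. An optimal summit lay at the start of 0 of the 94, which allows a share of up to 3.85%, against 13.7% on the rest. The share was 8 of 94 in the list of replicate 2 and 13 of 94 in that of replicate 3, against 52.6% and 49.5%. Most of these starts lie in unique sequence. Of the 94 genes, 89 had a start window that was at least 90% unique, and 10 of these 89 had a candidate (11.2%), against 52.1% of such genes on the rest. By arm the counts were 8 of 23 genes on X (34.8%) against 57.9%, 1 of 21 on 2L against 47.9%, 1 of 12 on 3R against 48.3%, and 0 of 38 on 3L against 50.6%. On chromosome 4, 52 of 80 genes (65.0%) had one.

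**Figure D4:**
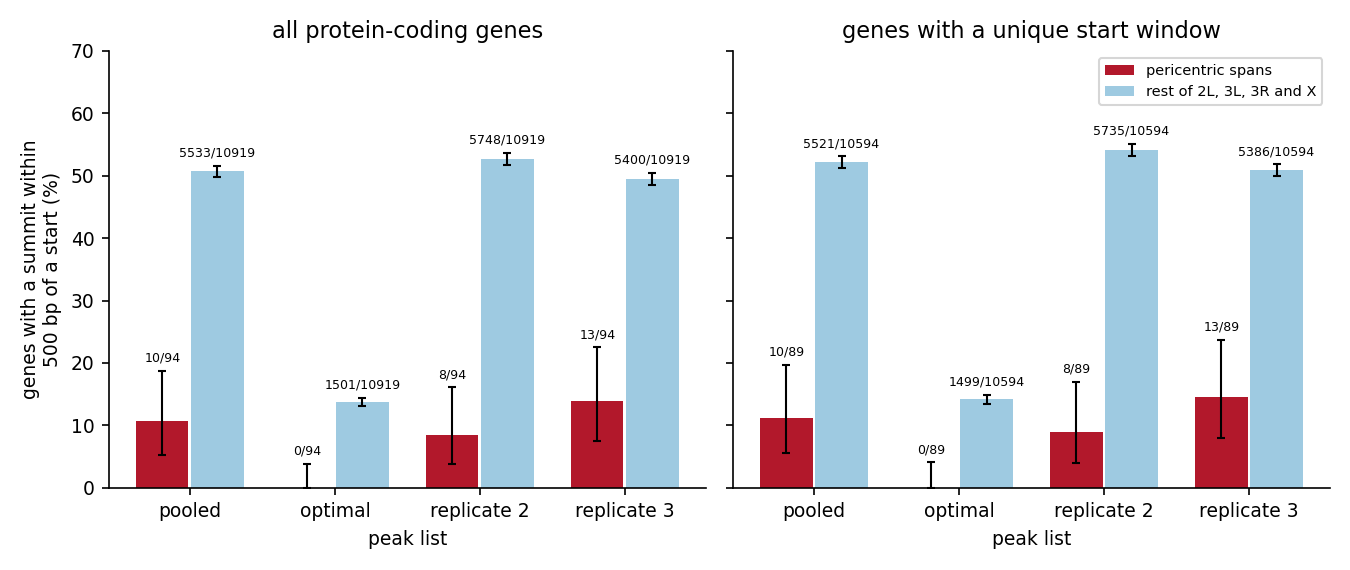
Percent of protein-coding genes with a summit no more than 500 bp from a start, for the pooled, optimal and replicate lists, in the pericentric spans (red) and on the rest of 2L, 3L, 3R and X (blue), over all genes (left) and over genes with a unique start window (right), with exact 95% binomial intervals and counts above the bars. The red bars stay under 15% in all 4 lists, and the blue bars of the pooled and replicate lists are at about 50%.

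Among 20 genes known as classical residents of pericentric heterochromatin, 19 start in the spans, and 4 of these had a candidate at a start: Gfat1, su(f), stnA and stnB, the last pair through 1 shared summit. A further one, fog, had members in its introns. DIP1 starts outside the spans and had a candidate at its start. The others had 0 members at a start or in the body. On 2L these were lt, a gene of vesicle traffic to the lysosome (756 kb to the nearest pooled candidate), cta, the G-protein alpha subunit gene that acts downstream of fog (813 kb), and the ribosomal protein gene RpL5 (368 kb). On 3R they were Parp1, the poly(ADP-ribose) polymerase gene (543 kb), Pzl (867 kb) and the myosin gene Myo81F (3563 kb). On 3L they were nrm (108 kb), the adherens junction gene alpha-Cat (448 kb), the SNARE gene Snap25 (1184 kb), nvd, which acts in ecdysone synthesis (1435 kb), the histone methyltransferase gene Set1 (2217 kb), the cohesin gene vtd (4246 kb), RpL15 (4377 kb) and the RNA helicase gene Dbp80 (4389 kb). The start window of each of these 14 was fully unique in sequence. For all 94 genes, the median distance of a start to the nearest pooled candidate was 388.4 kb, and 79 had neither a candidate at a start nor a member in the body.

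Ribosomal protein genes, whose promoters were already known to carry these peaks often, are a group with members on both sides of the boundary. Of the 4 cytosolic ones in the spans, RpL5, RpL10, RpL15 and RpL21, 0 had a pooled candidate at a start, against 64 of 66 on the rest of the arms. With 4 genes, the 0 allows a share of up to 60.2%. The list of replicate 3 had a peak at 1 of the 4, RpL10 (37.96, summit 75 bp inside the start), and that of replicate 2 at 0. In the optimal list they were 0 of 4 against 41 of 66 (62.1%).

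The list of replicate 3 held 49 pericentric peaks, and 22 of these overlapped a pooled member, while all 19 of replicate 2 did. Those without a pooled member included the pair at CkIIalpha on 3L, the gene of the catalytic subunit of casein kinase II, at 56.65 and 48.67 with summits 189 and 72 bp upstream of a start. Others were at RpL10, in nrm (30.18, 617 bp inside the start), and at Tif-IA, the gene of an RNA polymerase I factor (27.77, 114 bp upstream of the start). On 3R, Gfat1 had a replicate 3 peak of 46.08 at 417 bp inside a start. These lay 38988 to 140933 bp inside the boundary. None of them had a counterpart in the list of replicate 2, and the split between the replicates was not tested. How many replicate peaks on the rest of the arms overlap a pooled candidate was not counted. The 22 of 49 and 19 of 19 therefore have no background beside them and are not read as a trait of the spans.

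Among genes that start in the spans, CG42346 and fog had the most members in their body with 5 each, the same 5. CG17162 and FucTC followed with 4 each, and CG17159, CG17167 and Clamp with 3 each. CG42748, which also holds members on 2L, starts outside the spans and was not ranked. Of 60 non-coding RNA genes that start in the spans, 2 had a member in the body (3.33%, 95% interval 0.406% to 11.5%), against 17.8% of the 2613 on the rest of the arms. The median length of these genes was 553.5 bp in the spans and 552.0 bp on the rest. The 2 were the antisense genes asRNA:CR45009, which overlaps FucTC, and asRNA:CR43480, which overlaps CG17159, so the summits are shared with the protein-coding genes. The piRNA cluster flam, which holds transposon remains and silences transposons in the ovary, lies outside the spans at chrX:21631891-21790731 and held 0 pooled candidates. It sits in the part of X 0.5 to 1.0 Mb outside the boundary, where 19.2% of the 50-base words are unique and 2 candidates were listed in all. On the older build dm3, whose heterochromatic contigs are kept apart from the arms, 10 of 30000 pooled candidates lay on such contigs. All 10 were on that of X, with signals up to 87.2, and 0 of 3965 optimal peaks lay on such contigs. The separate sequence U of that build held 1 further pooled candidate and 0 optimal peaks.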

How the data were processed

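The data were peak lists from ChIP-seq of CG6683-GFP in 2 biological replicates of 1 group, made against a control alignment per the labels. Which aligner, peak caller and IDR threshold were used is not given in the sources used here. On dm6 and on dm3 the authors deposited a candidate list of 30000 peaks for each replicate and for the pooled data, and an optimal list. The signal values were used as the authors deposited them, and no normalisation is stated. The deposited −log10 q was the same in all optimal peaks and was not used. The deposited position of the summit placed each peak. The age label could not be read as an age, so the hours come from the source name.

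Members were found by summit position. A member counted as optimal when interval and summit were identical, and as found in a replicate at an overlap of 1 bp. Genes were from Ensembl release 115 (BDGP6.54) and sequence from RefSeq Release 6, both in dm6 coordinates. Each summit got the first class that applied: promoter, then 5′ UTR, then 3′ UTR, then coding exon, then intron, then non-coding gene, otherwise intergenic. Words of 36, 50 and 100 bases were counted over the whole genome on both strands. No p-value was computed, because 2 samples of 1 group allow no test. Named were all members in the optimal list, the 10 of highest signal outside it, and the classical and ribosomal genes with a start in the spans. Of the genes that start in the spans, those with the most members were also named, up to the fifth place and with those tied there. Other genes, such as Coa7, CkIIalpha and Tif-IA, were named after their values were seen. The members, the lists and the words were chosen with earlier results of these data known. The calculations were tested on simulated data. The tools were pandas 2.3.3, numba 0.67.0, NumPy 2.4.6, SciPy 1.17.1 and matplotlib 3.10.9 under Python 3.11.15. Alternatives were other boundaries, each replicate's list alone, other rules for shared peaks, merged members, other promoter windows, other lengths behind the density and the dm3 lists.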

Additional observations from a re-analysis of the deposited data

How the results depend on the processing

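Of 37 alternatives, 21 moved the value by less than its interval and 16 moved it further. The candidate density of 2.93 per Mb became 0 with boundaries 500 kb further in, where no candidate is left and the shares and medians have no value, and 20.96 with boundaries 500 kb further out. It was 5.03 per Mb of sequence not masked as repeat and 6.45 per Mb of unique words (chosen after seeing the data), since fewer bases are counted, and 1.64 to 4.23 in the list of 1 replicate alone. Each of these was lower than the 250.9 per Mb on the rest of the arms, a pooled value over all bases at unmoved boundaries. On a like basis the rest held 265.2 per Mb of unique words. In the lists of replicates 2 and 3 it held 250.8 and 249.6 per Mb. For unmasked sequence and moved boundaries a like value of the rest is not given. The promoter share of 23.5% was 45.3% with boundaries further out, 5.88% with a 200 bp window and 26.5% to 42.1% in 1 replicate alone. The 45.3% and the 42.1% lay above the share on the rest of the arms in the same list, unlike the pooled value. Most candidates behind the 45.3% lie outside the spans. The median signal of 42.8 was 71.6 over promoter summits and 32.5 to 34.3 in 1 replicate alone, where signals of separate lists need not share a scale. The optimal share was 0 for the upper 50% of that list. The share of a replicate's candidates in the spans was 0.0633% for replicate 2 and 0.163% for replicate 3, and it became 0 and 0.0333% among the 3000 of highest signal. On the dm3 contigs, which are not the same sequence as the spans, it was 0.0233% in the list labelled 2 there and 0.0200% in that labelled 3. Because the numbers disagree between builds, these 2 values do not pair with the dm6 ones by number. The cause of these shifts was otherwise not tested. Replicate numbers disagree between builds: on 2L, 96.8% of the dm6 intervals labelled replicate 2 are identical to intervals labelled replicate 3 on dm3, so the numbers may be swapped on either build. No paired analysis was possible because there is 1 group. With 34 members, no read counts and lists that end at 30000 peaks, small differences in share or signal were not detectable.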
